A study of Mus musculus with 2 samples.

Results

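Pro-B and large pre-B cells are the early, partly dividing stages of B cell development in the bone marrow. Here they were chosen by measured values: 3 or more UMIs (unique molecular identifiers, each standing for 1 captured transcript) summed over Vpreb1, Igll1 and Dntt. They also had 1 or more UMIs of Cd79a and Cd79b, at most 1 UMI of the Cd3 genes, under 5% of UMIs from adult globin genes and under 2% from S100a8 and S100a9. The rule was met by 260 of the 12259 barcodes that had at least 200 genes and at most 10% mitochondrial UMIs. Of these, 68 of 2974 came from the library labelled Apoe(-/-), Itgb3(-/-), called null-labelled below, and 192 of 9285 from the library labelled Apoe(-/-), Itgb3(+/+), called control-labelled. Each genotype was 1 droplet single-cell RNA library of bone marrow from C57BL/6 mice aged 6 months, with atherosclerosis given as the disease. Both groups lacked Apoe by label, the apolipoprotein whose loss raises plasma cholesterol, and they differed in Itgb3, which encodes integrin β3. The number of animals behind each library was not given in the sources used here.

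Early B cells assemble the immunoglobulin heavy chain gene through the recombinase encoded by Rag1 and Rag2, while Dntt adds bases at the joints. A finished heavy chain pairs with the surrogate light chain, made by Vpreb1, Vpreb2 and Igll1, and with Cd79a and Cd79b to form the pre-B receptor, which together with interleukin 7 drives the divisions of large pre-B cells. These cells then leave the cycle, stop making the surrogate light chain and rearrange a light chain as small pre-B cells.

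The null-labelled matrix held 44694854 UMIs over 4281 barcodes and the control-labelled matrix 79192158 UMIs over 12764 barcodes. Over all barcodes kept, Itgb3 had 270 UMIs (7.78 per 1000000 UMIs, written CPM) in the null-labelled library, against 1479 UMIs (22.2 CPM) in the control-labelled library. Transcripts counted near their 3′ end can lie outside a deleted part, so these counts check neither label, and Apoe was read in both libraries (63.5 and 116 CPM). The libraries shared 11 barcodes, 1 of which was a pro-B or large pre-B cell in either library. Because each genotype had 1 library, no p-value is given for any difference. Every interval below is at 95%, covers counting error only, and compares these 2 libraries, so genotype and library cannot be told apart.

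The cells took a similar share of each library. They were 2.29% of barcodes in the null-labelled library (exact Clopper-Pearson interval 1.78 to 2.89) and 2.07% in the control-labelled library (1.79 to 2.38), and the log2 ratio of the shares was 0.14 (interval -0.28 to 0.55). Depth differed more: the median was 13020 UMIs and 3351 genes per cell in the null-labelled library against 9132 UMIs and 2856.5 genes in the control-labelled one. Cells under 5000 UMIs numbered 9 and 70. Summed over the cells, 1050931 and 2429172 UMIs stood behind the levels given here. Deeper cells weigh more in these sums, so a level is not a mean over cells.

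The rule had few cells at its edge. Exactly 3 UMIs of Vpreb1, Igll1 and Dntt were found in 5 null-labelled and 7 control-labelled cells, which were inside, while 14 and 19 barcodes with 2 such UMIs and the other limits met were outside. Cells with 20 or more of these UMIs numbered 43 and 124. A further 12 and 43 barcodes had 3 or more of them but failed a limit on Cd79, Cd3, globin or S100a8 and S100a9 UMIs. Next to the edge Ms4a1, a gene of later B cells, stood at 25.8 CPM in the null-labelled barcodes just outside and at 0 just inside, and at 0 just outside and 16.9 CPM just inside in the control-labelled library.

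The name was checked against its markers. Ebf1, the transcription factor that commits cells to the B lineage (chromosome 11 from 44617317 to 45008091, GRCm38), was read in 66 of 68 null-labelled and 182 of 192 control-labelled cells. Rag1 (chromosome 2 from 101638282 to 101649501) was read in 20 and 73 cells. T cell markers summed to 2.85 and 2.47 CPM, with Cd3e, Cd3g and Themis at 0 in both libraries, but the rule itself limited the Cd3 genes and so fixed part of this. Some markers of other lineages were concentrated in 1 cell: 1 control-labelled cell held 75.8% of the granulocyte-monocyte progenitor marker UMIs and 1 null-labelled cell held 75% of the plasmacytoid dendritic cell marker UMIs. These progenitor markers summed to 3.81 CPM among null-labelled cells (2 of 5 genes, Mpo and Ms4a3, at 0) and 177 CPM among control-labelled cells. Others were spread over most cells. Neutrophil markers were read in 62 of 68 and 189 of 192 cells and summed to 204 and 655 CPM, and erythroid markers were read in 68 and 191 cells and summed to 859 and 1274 CPM. Natural killer markers were in 2 and 32 cells and monocyte markers in 12 and 51. Their part in the differences below was not tested. In all, 2 and 16 cells had 5 or more UMIs of natural killer, progenitor, monocyte, plasmacytoid dendritic or basophil markers, and the main counts are also given without them.

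The genes that define the stage set these cells apart from later B cells by construction, so their levels are a description. Vpreb1 (chromosome 16 from 16868403 to 16870843) had 1283 CPM in null-labelled and 1189 CPM in control-labelled cells. Igll1 (chromosome 16 from 16860671 to 16863985), the other surrogate light chain subunit, stood at 929 and 708 CPM. Both lay close between the libraries. Dntt, the terminal transferase (chromosome 19 from 41029275 to 41059525), was at 133 and 479 CPM, 3.59-fold lower in the null-labelled cells (interval 3.01 to 4.31). Cd79a, a signalling chain of the receptor, was at 1144 and 1040 CPM, whereas its partner Cd79b was at 1065 and 489 CPM.

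**Figure D1:**
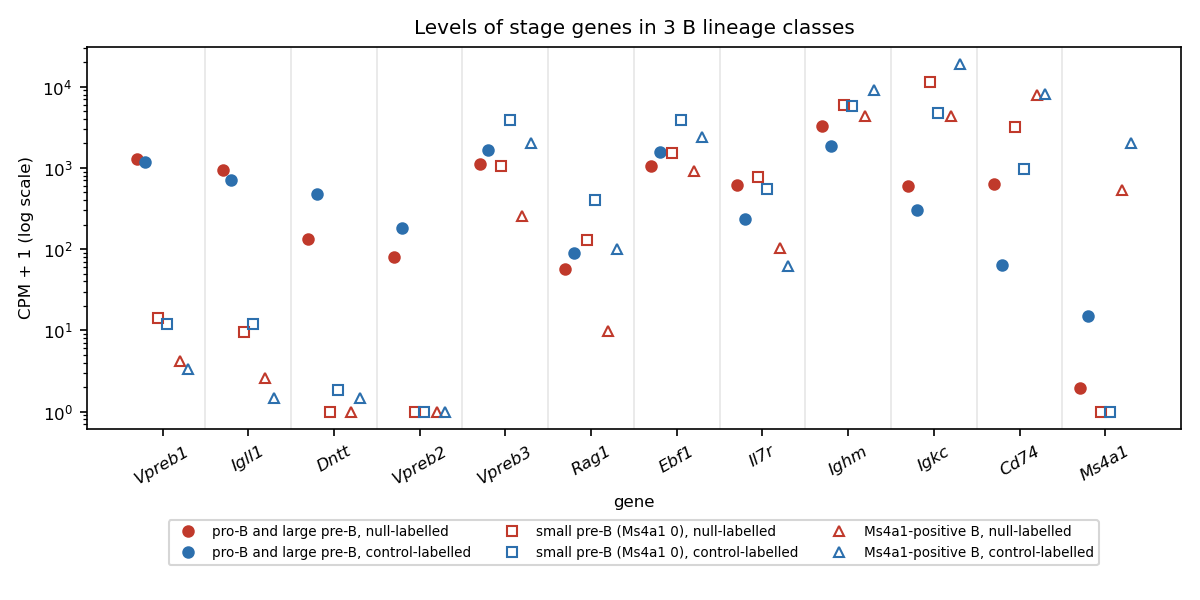
Levels in CPM + 1 (log axis) of 12 stage genes (x axis) in pro-B and large pre-B cells (filled circles), small pre-B cells (open squares) and Ms4a1-positive B cells (open triangles), each the sum over 1 library (red null-labelled, blue control-labelled). Vpreb1, Igll1, Dntt and Vpreb2 are high in the filled circles alone, and Igkc, Cd74 and Ms4a1 are lower there than in Ms4a1-positive B cells.

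Small pre-B cells and Ms4a1-positive B cells were taken for comparison. Both had at most 2 UMIs of Vpreb1, Igll1 and Dntt and 3 or more of Cd79a and Cd79b, and differed in having 0 or at least 1 UMI of Ms4a1. Barcodes with 5 or more UMIs of another lineage were left out of both, a step chosen after seeing that Elane, a neutrophil elastase gene, stood at 1009 and 952 CPM in the small pre-B barcodes and at 1.33 and 9.80 CPM without them. This left 287 and 802 small pre-B cells and 194 and 829 Ms4a1-positive cells. Their median depths were 4161 and 2201 UMIs for small pre-B cells and 5841 and 2177 UMIs for Ms4a1-positive cells.

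Within each library the pro-B and large pre-B cells had more Vpreb2 and more DNA replication transcripts than small pre-B cells. Vpreb2 belongs to the surrogate light chain like the rule's Vpreb1 and Igll1, so the choice of cells may have fixed part of its difference. Among 3369 genes counted in the null-labelled library 5.82% were 2-fold or more higher and 6.65% lower, and among 3581 in the control-labelled library 9.91% were higher and 15.4% lower. Vpreb2, the second VpreB chain, was at 79.0 and 182 CPM against 0 UMIs in small pre-B cells of both libraries. With each 0 set to a floor of 3 UMIs it was 39.6-fold and 143-fold higher (lower bounds 31.5 and 116). Cdk6, a kinase of the G1 phase, was 4.46-fold higher in the null-labelled (interval 3.39 to 5.94) and 8.16-fold higher in the control-labelled library (6.53 to 10.3). Impdh1, an enzyme of guanine nucleotide synthesis, was 13.1-fold and 13.6-fold higher, and Pnp, which salvages purines, 4.31-fold and 3.95-fold higher. The DNA replication list had 12 of 16 genes 2-fold or more higher with a median log2 ratio of 1.38 in the null-labelled library, and 12 of 19 with a median of 1.03 in the control-labelled one, none lower in either. The G2 and mitosis list differed between the libraries, with 8 of 17 genes higher and a median of 0.98 in the null-labelled one but 0 of 20 higher, 0 lower and a median of 0.14 in the control-labelled one. The median over all genes was -0.09 and -0.15.

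Genes of the small pre-B stage ran the other way. Cd2 stood at 9.52 CPM in null-labelled pro-B and large pre-B cells against 224 CPM in small pre-B cells, and at 2.47 against 125 CPM in the control-labelled library. Il2ra, the CD25 antigen that marks small pre-B cells, stood at 2.85 against 50.5 CPM and at 9.06 against 127 CPM. Cd74, the MHC class II invariant chain, stood at 641 against 3180 CPM and at 62.6 against 957 CPM. The light chain and mature B list had 10 of 12 genes 2-fold or more lower in each library, with medians of -3.08 and -3.22.

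The cells differed among themselves in Dntt and in the cycle. To compare cells at 1 depth, each was thinned to 2000 UMIs drawn at random, which left out 10 control-labelled cells with fewer. Dntt was then read in 12 of 68 null-labelled cells (17.6%, exact interval 9.46 to 28.8) and 83 of 182 control-labelled cells (45.6%, 38.2 to 53.1). Without thinning the shares were 38.2% and 52.1%. Neutrophil barcodes, which should lack Dntt, gave 0 of 622 (exact interval up to 0.591%) and 2 of 2572 (0.0778%) at the same thinned depth, from median depths of 10912 and 4600 UMIs before thinning. The 2 intervals of the cells do not overlap, but the share is of a gene that the rule used.

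Cycling cells, those with 3 or more thinned UMIs of the DNA replication and G2 and mitosis lists, were 41 of 68 (60.3%, interval 47.7 to 72.0) in the null-labelled and 124 of 182 (68.1%, 60.8 to 74.8) in the control-labelled library. Only 3 and 18 cells lay 1 UMI below that number. These intervals overlap. The difference was -7.8 percentage points (interval -27.1 to 11.1), and without thinning it had the other sign, at 80.9% and 70.3%, with the null-labelled cells the deeper ones. Among small pre-B cells the thinned shares were 23.2% of 284 and 40.3% of 516 cells, as thinning left out 3 and 286 shallower ones. At full depth their order was also the other way, at 44.9% and 29.6%.

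**Figure D2:**
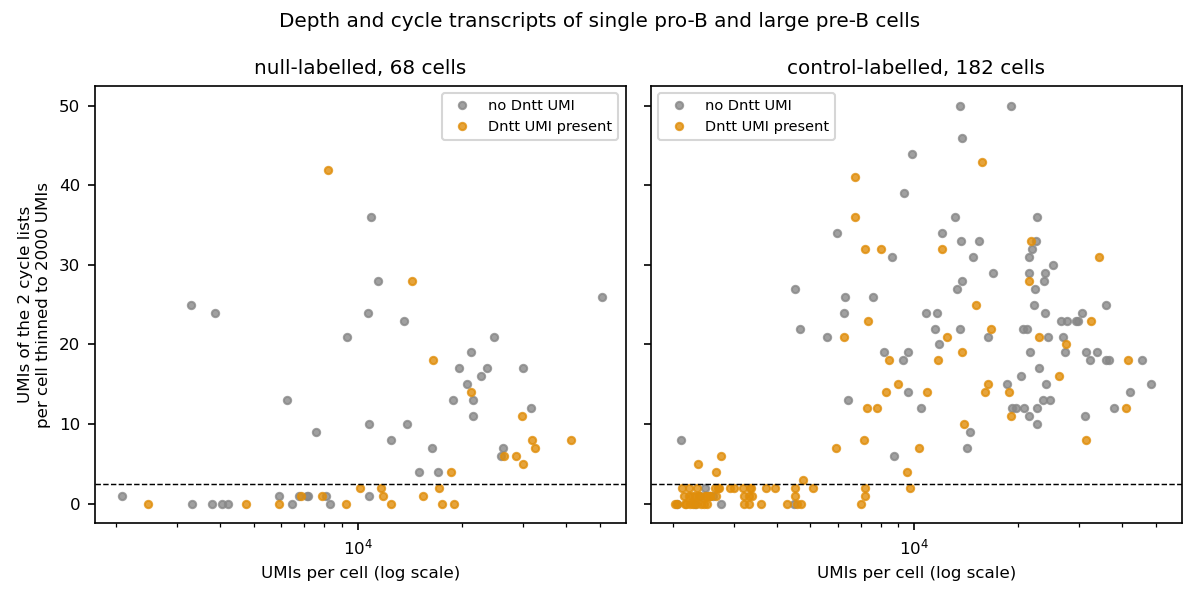
Each point is 1 cell, with its UMIs on the x axis (log scale) and its UMIs of both cycle lists after thinning to 2000 UMIs on the y axis, for 68 null-labelled (left) and 182 control-labelled cells (right), and the dashed line separates cells with 3 or more. In the control-labelled library 51 cells with a Dntt UMI (orange) lie below the line at a median of 2663 UMIs, while in the null-labelled library 14 such cells do at a median of 10904 UMIs.

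Crossing both traits gave 4 kinds of cells. Cycling cells without a Dntt UMI, the pattern of large pre-B cells, were 29 of 68 (42.6%) in the null-labelled and 82 of 182 (45.1%) in the control-labelled library. Cells with Dntt outside the cycle were 14 (20.6%) and 51 (28.0%), cells with both 12 (17.6%) and 42 (23.1%), and cells with neither 13 (19.1%) and 7 (3.85%). The deepest kind in the control-labelled library was cycling without Dntt, at a median of 20524 UMIs. In the null-labelled library it was cycling with Dntt, at 27497 UMIs, against 17063 UMIs without. Cells with Dntt were thus the deeper ones in the null-labelled library (medians of 15960 and 11181 UMIs) and the shallower ones in the control-labelled library (3845 and 17726 UMIs). Whether a cell has a Dntt UMI here rests on unthinned counts.

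Cells with a Dntt UMI carried the transcripts of the pro-B stage. Between them and cells with none, 6.02% of 3303 genes were 2-fold or more higher and 4.33% lower in the null-labelled library, against 9.07% and 1.54% of 3319 in the control-labelled one. Rag1 stood at 115 against 11.7 CPM in the null-labelled library, a ratio of 9.85 (interval 4.46 to 25.7), and at 245 against 10.4 CPM in the control-labelled library, a ratio of 23.4 (14.3 to 41.0). Kit, the stem cell factor receptor of early progenitors, stood at 57.6 against 5.01 CPM and at 36.2 against 3.69 CPM. Cells without Dntt had more Igkc, the kappa light chain constant region, at 900 against 215 CPM and 399 against 93.6 CPM. They also had more Ikzf3, the Aiolos factor of later pre-B cells, at 56.7 against 6.64 CPM and 59.6 against 13.7 CPM, and more Blk, a Src family kinase of the pre-B receptor, at 93.5 against 26.6 CPM and 101 against 12.5 CPM. Not every stage gene split alike: Cd34 and Flt3, of early progenitors, stood at 96.1 and 83.6 CPM in control-labelled cells with Dntt against 0 and 0.614 CPM without, but at 17.7 and 33.2 CPM against 10.0 and 13.4 CPM in the null-labelled library.

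Cycling cells had less Rag1 and Vpreb2 than cells outside the cycle in both libraries, while the recombination list as a whole was mixed. The 2 groups were unlike in Dntt and depth. A Dntt UMI was in 12 of 41 null-labelled and 42 of 124 control-labelled cycling cells, against 14 of 27 and 51 of 58 outside the cycle. Median depths were 19540 and 16175 UMIs in the cycle against 7158 and 2637 UMIs outside. The part of mix and depth was not tested. In that comparison 9.09% of 3410 genes were 2-fold or more higher and 12.6% lower in the null-labelled library, and 17.2% and 29.5% of 3914 (46.8% either way) in the control-labelled one. Rag1 stood at 36.6 against 126 CPM in the null-labelled and at 25.6 against 734 CPM in the control-labelled library. Vpreb2 stood at 37.8 against 226 CPM and at 119 against 856 CPM. Of the recombination list 2 of 4 counted genes were 2-fold or more higher and 1 lower in the null-labelled library (median 0.89), and 2 of 6 were higher and 3 lower in the control-labelled one (median -0.66). The higher pair in both were Hmgb1 (2889 against 760 CPM and 3735 against 1015 CPM) and Hmgb2 (2795 against 360 CPM and 3450 against 452 CPM), chromatin proteins that also serve outside recombination. The genes highest in cycling cells of both libraries beyond the lists used for the split included Stmn1, a regulator of microtubules (888 against 34.7 CPM and 1733 against 165 CPM), and the linker histone gene Hist1h1b (570 against 17.4 CPM and 623 against 21.3 CPM).

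Between the libraries, transcripts induced by interferon were far higher in null-labelled pro-B and large pre-B cells, and many replication and heat shock genes were lower. Genes were counted by size. A gene was counted if it reached 50 CPM in 1 library or more and had 30 UMIs in all, and the rule's own genes were left out. Of the 3416 such genes, 375 (11.0%) were 2-fold or more higher and 420 (12.3%) were 2-fold or more lower in the null-labelled cells. Either way it was 23.3%, and these shares stand beside each list count over all cells below. The median log2 ratio over all genes was -0.08. Without the 2 and 16 cells with UMIs of another lineage the counts were 384 and 446. The minimum keeps a low gene only where 1 library is high, so no count over a list is of all its genes.

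The type I interferon list had 23 of 24 counted genes higher, 0 lower, and a median log2 ratio of 4.20 over the 27 genes measured. Isg15, a ubiquitin-like modifier (chromosome 4 from 156199424 to 156200818), stood at 206 and 7.0 CPM, 29.4-fold higher in the null-labelled cells (interval 17.9 to 51.4). It was read in 48 of 68 and 14 of 192 cells. Rsad2, the antiviral enzyme viperin (chromosome 12 from 26442746 to 26456452), had 159 UMIs against 1 UMI, a ratio of 368 with an interval of 65.0 to 14606. Mx1, an antiviral GTPase, had 94 UMIs against 0, 72.4-fold higher with the 0 set to a floor of 3 UMIs (lower bound of the interval 57.8). Ifitm3, which blocks virus entry, stood at 941 and 51.0 CPM, and the sensor Zbp1 at 288 and 4.12 CPM. The gene of the list below 2-fold was Ly6e, at 1168 and 657 CPM.

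The interferon-inducible GTPases, which attack the membranes around intracellular microbes, had 10 of 10 counted genes higher and a median of 4.64. Iigp1 stood at 789 CPM against 0.823 CPM (829 UMIs against 2), a ratio of 958 with an interval of 264 to 7924, and was read in 66 of 68 cells against 2 of 192. Gbp2 stood at 634 and 8.64 CPM, 73.3-fold higher (47.6 to 119). Gbp6 had 79 UMIs against 0, 60.9-fold higher with the same floor (lower bound 48.4). Among the 12 genes with the highest lower bounds the others were the protease inhibitors Serpina3g (556 and 0.823 CPM) and Serpina3f (700 and 2.88 CPM), the chemokine gene Cxcl10 (104 and 0.412 CPM), Ifit3, Ifi213 and Gbp4. Cxcl10 was read in 15 of 68 cells, and 1 of them held 31.2% of its UMIs.

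The promoters of such genes carry the interferon-stimulated response element. The sequences below, from RefSeq (GRCm38.p6), show it for 5 genes of the list or of the highest genes whose matched window lay outside annotated exons. Each is read 5′ to 3′ on the gene's strand with matches to the element (GAAA, any 2 bases, then GAAA again) on either strand in capitals, so that a match on the other strand reads as its reverse complement. The lines are Isg15 (chr4:156200825-156200934, minus strand), Ifit3 (chr19:34583357-34583466, plus), Rsad2 (chr12:26456513-26456622, minus), Ifi213 (chr1:173599286-173599395, minus) and Cxcl10 (chr5:92349043-92349139, minus).
Isg15: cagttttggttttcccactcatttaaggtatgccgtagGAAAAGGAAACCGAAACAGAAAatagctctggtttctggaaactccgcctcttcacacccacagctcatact
Ifit3: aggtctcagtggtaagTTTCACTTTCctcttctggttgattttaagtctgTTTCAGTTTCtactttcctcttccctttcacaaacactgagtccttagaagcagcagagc
Rsad2: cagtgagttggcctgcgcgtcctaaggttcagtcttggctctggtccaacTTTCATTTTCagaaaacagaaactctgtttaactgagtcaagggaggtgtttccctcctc
Ifi213: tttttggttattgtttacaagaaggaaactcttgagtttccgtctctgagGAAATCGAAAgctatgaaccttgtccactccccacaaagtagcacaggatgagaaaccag
Cxcl10: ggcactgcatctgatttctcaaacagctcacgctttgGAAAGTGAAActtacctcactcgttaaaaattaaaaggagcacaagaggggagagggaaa

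Matches to that element within the 250 bases before the start were found in 9 of the 19 interferon list genes matched to a promoter and in 9 of 9 matched GTPase genes. In the MHC class I and peptide loading list they were found in 3 of 16. Isg15 had 3 overlapping matches and Ifit3 had 2. The pattern was in 3.04% of all 27025 promoters and in 3.73% of the 2737 matched among the genes counted. It was in 42 of 303 matched genes that were 2-fold or more higher (13.9%) and in 6 of 352 that were lower (1.7%). The promoters of Serpina3g and Serpina3f had no match in this window. A second pattern, GAS (TTC, any 3 bases, then GAA), was in 3 of 19 interferon list and 6 of 9 GTPase promoters. It was in 1 of 16 of the class I list, 7.18% of all promoters and 5.85% of those of the genes counted. A match is a pattern of letters and does not show binding.

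**Figure D3:**
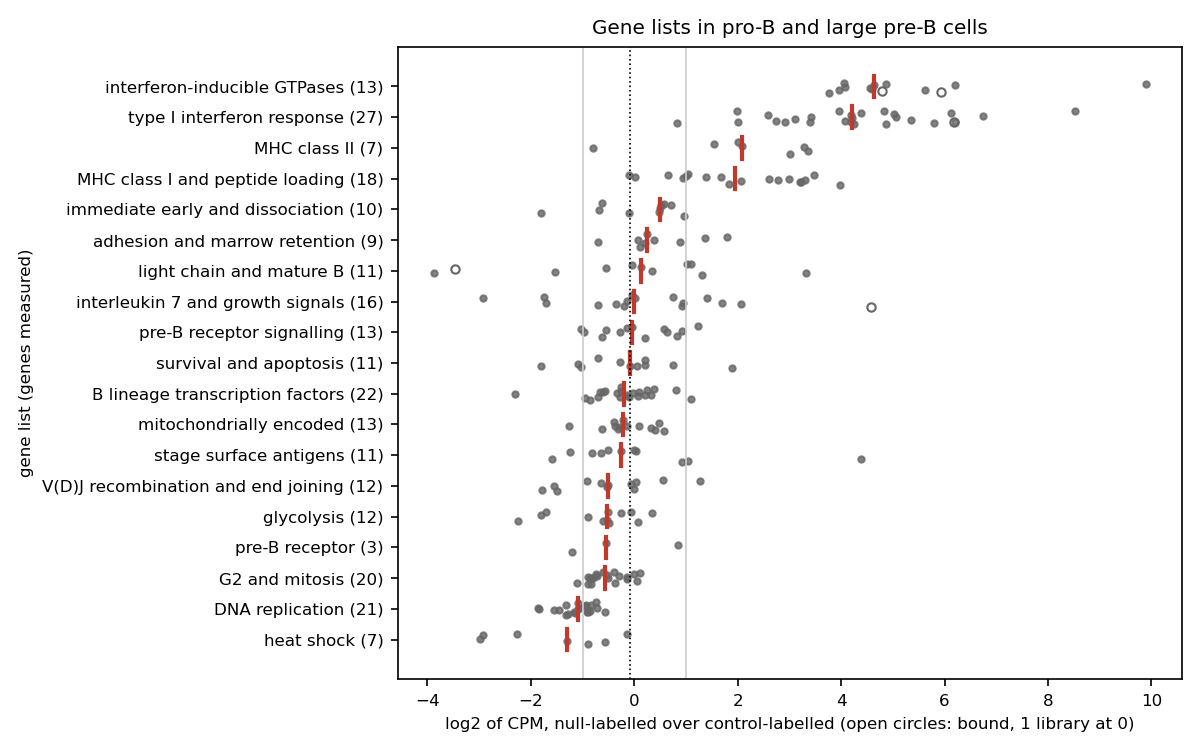
Each point is 1 gene with 30 or more UMIs, its log2 ratio of CPM (null-labelled over control-labelled) on the x axis, by gene list (y axis, with the number of genes measured). Red bars are list medians, the dotted line is the median of all genes (-0.08), and the grey lines mark 2-fold. Both interferon lists lie to the right of the 2-fold line except Ly6e, and the DNA replication list lies wholly to the left of the dotted line.

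Antigen presentation genes were higher as well. Of the MHC class I and peptide loading list 14 of 17 counted genes were higher, 0 were lower and the median was 1.94. H2-K1, a class I heavy chain, stood at 1991 and 619 CPM, B2m, the light chain they share, at 2717 and 764 CPM, and Tap1, a peptide transporter, at 697 and 74.1 CPM. The class I genes are near-identical copies, so UMIs of single members such as H2-Q6 and H2-Q7 may be split between them. All 5 counted MHC class II genes were higher. Cd74 was 10.2-fold higher (interval 8.58 to 12.3) and was read in 48 of 68 against 34 of 192 cells, and the class II transactivator Ciita, below the minimum for counting, had 22 UMIs against 12.

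Interferon transcripts were higher in every kind of cell. In cells thinned to 2000 UMIs the list gave a median of 10 UMIs per cell in the null-labelled library (range 1 to 38) and 2.5 in the control-labelled one (0 to 20), so the ranges overlap. Cells with 3 or more were 66 of 68 (97.1%) and 91 of 182 (50%). Without thinning these shares were 100% and 94.8%. By kind of cell, the null-labelled medians were 24 UMIs in cells with Dntt outside the cycle, 11 in cells with neither, 9 in cells with both and 7 in cycling cells without Dntt. The control-labelled medians for the same kinds were 5, 3, 3 and 1. Summed over cells, 24 of 25 counted genes of the list were higher in cells with Dntt (beside 9.65% of all genes), 20 of 20 in cells without (14.0%), 18 of 19 in cycling cells (11.0%) and 17 of 21 outside the cycle (9.28%), with medians of 3.51, 4.66, 4.53 and 3.05. Within each library the list was lower in cycling cells, with 14 of 25 counted genes 2-fold or more lower and 0 higher (median -1.12) in the null-labelled library and 8 of 8 lower (-2.40) in the control-labelled one.

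**Figure D4:**
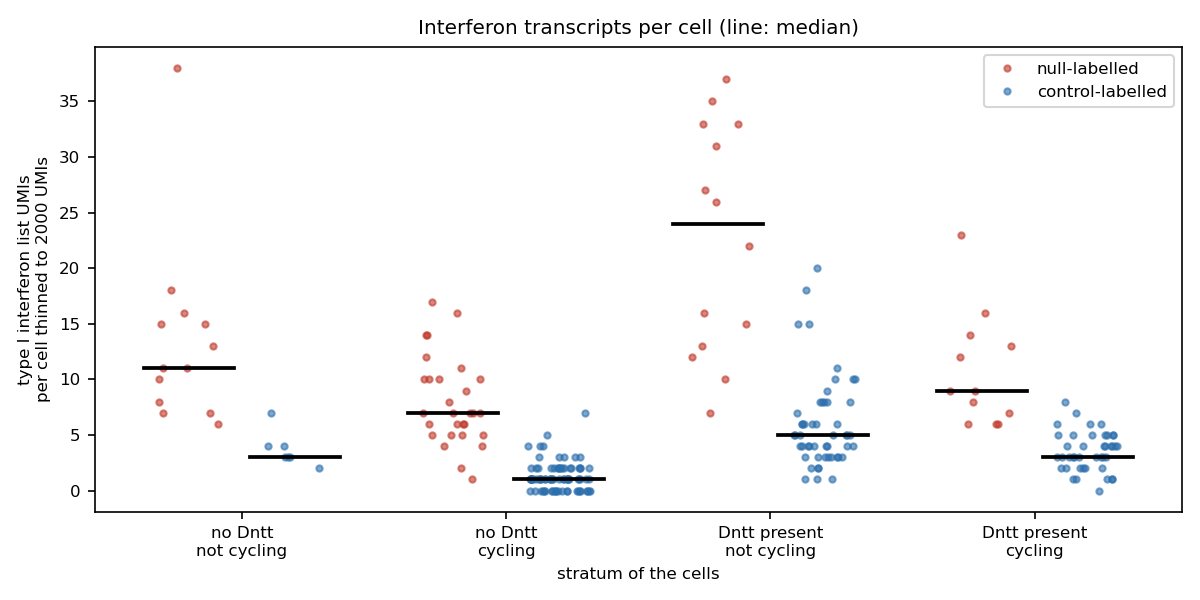
UMIs of the type I interferon list per cell after thinning to 2000 UMIs (y axis) for 4 kinds of cells (x axis) in the null-labelled (red) and control-labelled library (blue), with 1 point per cell and the median as a line. The null-labelled median is the higher one in each kind, from 7 against 1 in cycling cells without Dntt to 24 against 5 in cells with Dntt outside the cycle.

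The same list was higher in other cells of the null-labelled marrow. Neutrophil barcodes at that thinned depth had a median of 23 UMIs of it in the null-labelled and 3 in the control-labelled library. Free RNA was estimated from the granule genes Ngp, Camp, Ltf, Elane and Mpo in the pro-B and large pre-B cells, at 0.225% and 0.780% of their UMIs. The control-labelled estimate includes 1 cell that held 75.2% of the Mpo UMIs, so it may not be of free RNA alone. After subtracting these estimates the list's median was 4.24. In small pre-B cells the list had 17 of 19 counted genes higher, 0 lower and a median of 3.83, beside 7.48% of 3598 genes higher and 12.1% lower (19.6% either way). In Ms4a1-positive B cells it had 16 of 19 higher, 1 lower and a median of 2.84, beside 9.39% of 3440 genes higher and 14.8% lower. Whether the classes differ was not tested.

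DNA replication genes were lower in the null-labelled cells. The list had 10 of 19 counted genes 2-fold or more lower, 0 higher, and a median log2 ratio of -1.09 over 21 genes, which lay between -1.86 and -0.57. Rrm2, a subunit of the enzyme that makes deoxynucleotides, stood at 80.9 and 291 CPM, 3.60-fold lower (interval 2.87 to 4.57). Mcm2, of the replicative helicase, stood at 61.8 and 181 CPM, and the chromatin remodeller Hells at 50.4 and 183 CPM. Dut, which clears dUTP, was the gene of the list with the highest level, at 268 and 735 CPM. Among cycling cells alone the median was -0.90, with 7 of 20 counted genes lower (beside 12.8% of 3330 genes) and 0 higher. These cells were themselves chosen by UMIs of this list and of the G2 and mitosis list. The G2 and mitosis list differed less, with 1 of 20 genes (Ccna2, 109 and 237 CPM) 2-fold or more lower, 0 higher, and a median of -0.56. Mki67, the proliferation antigen, stood at 550 and 709 CPM.

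Heat shock genes were lower too. Of the 7 heat shock genes 4 were 2-fold or more lower and 0 higher, with a median of -1.31. Hsp90aa1, a cytosolic chaperone (chromosome 12 from 110690605 to 110702728), stood at 383 and 1854 CPM, 4.83-fold lower (interval 4.36 to 5.37), and was read in 60 of 68 and 155 of 192 cells. Hspd1, the mitochondrial chaperonin, stood at 88.5 and 670 CPM, 7.57-fold lower (6.14 to 9.43). Heat shock genes also respond to how cells are handled, which was not tested. Immediate early genes, another sign of handling, had 0 of 5 counted genes past 2-fold either way (beside 23.3% of all genes) and a median of 0.49. They ran in opposite directions by kind of cell. Among cells with Dntt 3 of 8 were lower (beside 12.7% of all genes), 0 higher and the median was -0.30. Among cells without Dntt 3 of 5 were higher (beside 14.0%), 0 lower and the median was 0.69. Among cells outside the cycle the heat shock median was 0.04 over 5 genes, against -1.36 over 7 in cycling cells.

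Some genes of other lists or of none were lower, and several are named because they were among the lowest. Myc, which drives growth, had 8 UMIs in 4 null-labelled cells and 141 UMIs in 52 control-labelled cells, 7.63-fold lower (interval 3.77 to 18). Srm, which makes spermidine, stood at 12.4 and 154 CPM, Cad, of pyrimidine synthesis, at 7.61 and 66.3 CPM, and Dkc1, which modifies ribosomal RNA, at 32.4 and 190 CPM. Ldha, the lactate dehydrogenase, stood at 213 and 742 CPM and Tpi1 at 77.1 and 251 CPM, the 2 of 8 counted glycolysis genes that were lower. Gapdh, of the same pathway, stood at 1349 and 1402 CPM. The 12 genes with the most distant bounds on the lower side also held Fkbp4, Fam136a, Vasp, Samd1 and Ybx3, together with Mpo and Prtn3. The last pair are granule genes, and 1 control-labelled cell held 75.2% of the Mpo and 77.4% of the Prtn3 UMIs.

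Summed over all cells, most lymphoid regulators stayed within 2-fold, as most genes did, but outside the cycle many were lower. The sums rest mainly on cycling cells, and unequally. They held 820634 of the 1050931 null-labelled UMIs and 2226556 of the 2429172 control-labelled ones. Of 20 counted B lineage transcription factors 1 was higher and 1 lower (beside 11.0% and 12.3% of all genes), and the list's median was -0.20. Among cells outside the cycle 10 of 18 were lower (beside 13.4% of all genes), 1 was higher and the median was -1.10. Among cycling cells 1 of 20 was lower (beside 12.8%), 0 higher and the median -0.08. Among cells with Dntt 5 of 19 were lower (beside 12.7%) and 1 higher. Irf8, which also takes part in interferon responses, stood at 366 and 172 CPM, 2.13-fold higher (interval 1.85 to 2.45). Id3, an inhibitor of E proteins, stood at 24.7 and 122 CPM, 4.94-fold lower (3.31 to 7.69). Ebf1 stood at 1052 and 1567 CPM and Pax5, the guardian of B cell identity, at 178 and 283 CPM. Tcf3, the E2A factor, stood at 293 and 254 CPM. For Ebf1 and Pax5 the intervals of the ratio (1.39 to 1.59 and 1.35 to 1.88 fold lower) excluded 1, yet both sizes were under 2-fold. Outside the cycle Ebf1 stood at 1646 and 5358 CPM and Pax5 at 182 and 590 CPM, from cells of unlike depth (medians of 7158 and 2637 UMIs). Cells outside the cycle were also an unlike mix, as 14 of 27 null-labelled and 51 of 58 control-labelled ones had a Dntt UMI. The part of depth and mix in these differences was not tested.

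The recombination list had 0 of 4 counted genes past 2-fold over all cells (beside 23.3% of all genes), and a median of -0.52. Outside the cycle 3 of 5 counted genes were lower (beside 13.4% of all genes), 0 higher and the median was -1.19. Among cells with Dntt 2 of 5 were lower (beside 12.7%) and 0 higher (median -0.58). Rag1 stood at 56.1 and 87.7 CPM, 1.56-fold lower (interval 1.17 to 2.12), and was read in 11.8% and 26.4% of thinned cells. Rag2, below the minimum for counting, stood at 19.0 and 35.8 CPM. Rag1 depended on the kind of cell: it stood at 115 and 245 CPM in cells with Dntt and at 11.7 and 10.4 CPM in cells without. Outside the cycle it stood at 126 and 734 CPM. There 14 of 27 null-labelled and 51 of 58 control-labelled cells had a Dntt UMI, at median depths of 7158 and 2637 UMIs. The chromatin proteins Hmgb1 and Hmgb2 stood at 2423 and 3509 CPM and at 2262 and 3202 CPM. Of the pre-B receptor genes outside the rule Ighm, the mu heavy chain, stood at 3307 and 1841 CPM, Vpreb2 at 79.0 and 182 CPM, 2.31-fold lower (1.82 to 2.96), and Vpreb3 at 1124 and 1651 CPM. Vpreb2 was the 1 of these 3 past 2-fold.

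Interleukin 7 signalling genes were mixed, with 3 of 8 counted higher, 2 lower (beside 11.0% and 12.3% of all genes) and a median of -0.01. Il7r, the receptor chain on which these cells depend, stood at 616 and 233 CPM, 2.65-fold higher (interval 2.36 to 2.97). It was higher to a similar size in cells with Dntt (2.63-fold) and without (2.69-fold), and thinned cells with a UMI were 63.2% and 41.8%. Il2rg, the shared gamma chain, stood at 82.8 and 19.8 CPM, and the kinase gene Pim1 at 291 and 89.3 CPM. Socs3, a feedback inhibitor of cytokine receptors, had 31 UMIs in 17 null-labelled cells and 0 in the control-labelled cells. That was 23.9-fold higher with the 0 set to a floor of 3 UMIs, though its level was below the minimum for counting. Ccnd3, the cyclin of large pre-B divisions, stood at 202 and 657 CPM, 3.26-fold lower (2.82 to 3.78), and was read in 56 of 68 and 151 of 192 cells.

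Of 10 counted pre-B receptor signalling genes 1 was higher and 1 lower, near the shares of all genes (11.0% and 12.3%). The kinase Syk stood at 321 and 137 CPM and Btk at 36.2 and 74.1 CPM. The adaptor Blnk, at 410 and 215 CPM, was under 2-fold. Of the light chain and mature B list 3 of 5 counted genes were higher (beside 11.0% of all genes). Igkc stood at 605 and 298 CPM, and thinned cells with a UMI of it were 50% and 30.8%, against 2.25% and 2.06% in neutrophil barcodes. Its level was 11401 and 4791 CPM in small pre-B cells. Ly6a, the Sca-1 antigen of progenitors and an interferon-induced gene, stood at 360 and 17.3 CPM, 20.8-fold higher (15.1 to 29.3). Cxcr4, which holds cells in the marrow, stood at 184 and 71.6 CPM, and Cd44 at 64.7 and 31.7 CPM.

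Survival genes showed no common direction, with 1 of 6 counted genes higher and 2 lower (beside 11.0% and 12.3% of all genes). Bcl2l11, the cell death activator Bim, stood at 58.0 and 15.6 CPM, 3.71-fold higher (interval 2.44 to 5.72). Trp53 stood at 51.4 and 180 CPM, 3.51-fold lower (2.64 to 4.75), and Bax at 79.9 and 169 CPM. None of the 12 counted mitochondrially encoded genes was past 2-fold (beside 23.3% of all genes). The median share of mitochondrial UMIs per cell was 5.64% and 5.13%.

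The deleted gene was barely read in these cells. Itgb3 had 6 UMIs in 3 null-labelled cells and 1 UMI in the control-labelled cells, too few to set a level against the genotype labels. Itgav, a partner of integrin β3, had 22 and 44 UMIs, a ratio of 1.16 with an interval of 0.660 to 1.97. Itga2b had 1 UMI in each library and Apoe 2 and 44 UMIs. Itga4, which anchors precursors to marrow stroma, was the integrin gene of the adhesion list with the most UMIs, at 370 and 200 CPM.

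**Figure D5:**
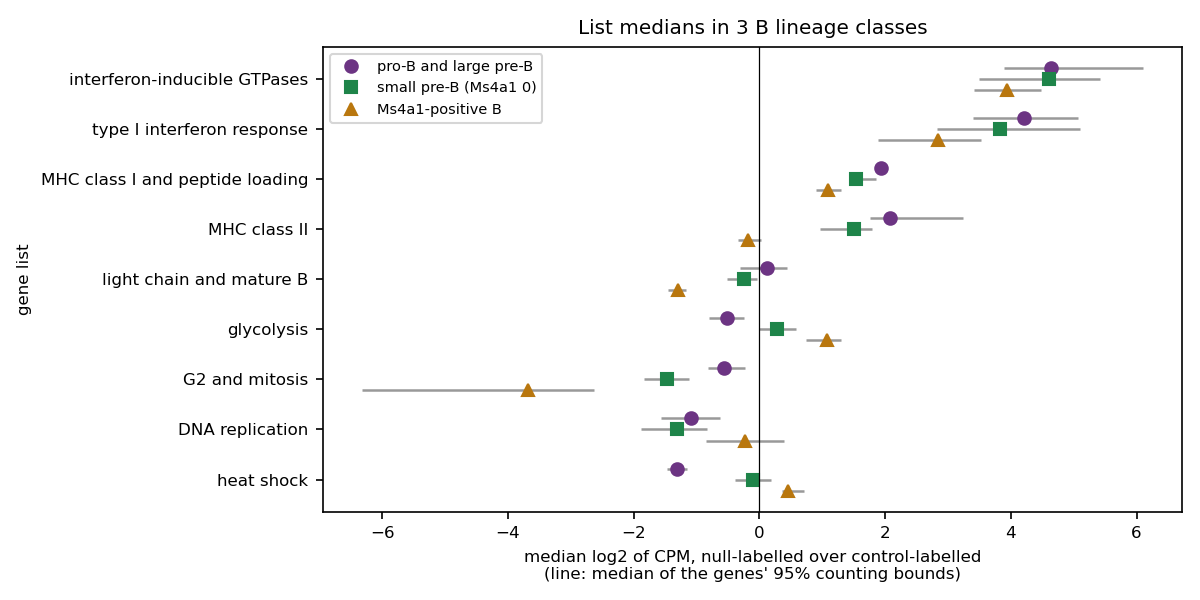
List medians of the log2 ratio (null-labelled over control-labelled, x axis) for 9 gene lists (y axis) in pro-B and large pre-B cells (circles), small pre-B cells (squares) and Ms4a1-positive B cells (triangles), with lines spanning the medians of the genes' 95% counting bounds. Interferon lists lie right of 0 in all 3 classes, while glycolysis and heat shock lie left of 0 in pro-B and large pre-B cells (-0.52 and -1.31) and right of 0 in Ms4a1-positive B cells (1.07 and 0.46).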

How the data were processed

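Values as deposited by the authors were raw counts, whole numbers of UMIs for each gene in each barcode. Cell Ranger 3.0, Seurat and mm10 appear in the submitters' processing notes, while per the file headers the software version was 3.1.0. Filters applied earlier were not given in the sources used here. All 31053 features carried Ensembl identifiers, 30934 (99.6%) of them in GENCODE vM21 for GRCm38, which gave the coordinates, counted from 1. The members and lists were chosen with earlier results of these data known.

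UMIs were summed over the cells per library and scaled to CPM. Levels carry exact Poisson intervals, shares exact Clopper-Pearson intervals, and ratios an exact interval from the split of UMIs between libraries, at 95% (scipy 1.17.1). These cover counting error only, and PCR copies are removed as far as UMIs allow. A library at 0 was set to a floor of 3 UMIs. Genes were counted past 2-fold if they reached 50 CPM in 1 library or more and 30 UMIs in all. The rule for named genes took the 12 highest and 12 lowest by the ratio bound nearest to 1 (predicted, immunoglobulin, sex-linked and rule genes left out), 8 each way within libraries, of each list those with the highest level and the largest ratio, the genes of the pre-B receptor, recombination and transcription factor lists, and Itgb3, Apoe, Itgav and Itga2b. Not all of these are printed. Ciita, Kit, Cd34, Flt3, Gapdh, Blnk, Mki67 and other list genes outside the rule were added after their values were seen. The ratio script was tested on simulated data.

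No doublets were removed in the main values. Scrublet (scanpy 1.11.5) served as an alternative at 0.8% per 1000 cells and marked 71 and 690 barcodes, 1 and 3 of them among the cells described. Its automatic threshold marked 4 and 368 and none of these cells. TMM factors came from edgeR 4.0.16. Thinning used 2000 UMIs per cell. Other alternatives varied the quality filters, the rule's minimum, the scaling, free RNA and the minimum level.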

Additional observations from a re-analysis of the deposited data

Results flagged for a closer look

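Some genes named above lay past 2-fold in opposite directions in pro-B and large pre-B cells and in Ms4a1-positive B cells, with counting intervals clear of 1 in both. The difference between the classes was not tested. Srm had a log2 ratio (null-labelled over control-labelled) of -3.64 in pro-B and large pre-B cells and 1.39 in Ms4a1-positive B cells, where it stood at 58.8 and 22.4 CPM. Myc had -2.93 against 3.03, standing at 95 and 11.7 CPM in the Ms4a1-positive cells. Ldha had -1.80 against 1.42 and Tpi1 had -1.70 against 1.07. Tnfrsf13c, the BAFF receptor gene of later B cells, ran the other way, at 1.10 in pro-B and large pre-B cells (70.4 and 32.9 CPM) and -1.29 in Ms4a1-positive B cells (238 and 582 CPM).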

How the results depend on the processing

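No paired analysis was possible because each genotype was 1 library. The count of genes 2-fold or more higher in null-labelled cells was 375, and became 708 in cells with at most 5% mitochondrial UMIs, 186 with cells thinned to 2000 UMIs before summing, 1084 with at least 10 UMIs and no minimum CPM, and 214 in cells outside the cycle. The count lower was 420 and became 1555 with at least 10 UMIs and no minimum CPM. The interferon list's median of 4.20 became 3.05 in cells outside the cycle, and the DNA replication median of -1.09 became -1.65 with at most 5% mitochondrial UMIs. The DNA replication median could not be given outside the cycle, since its genes define that split. The difference in the share of cells with Dntt, -28 percentage points, became -45.1 (18.6% and 63.7%) with the rule applied to thinned counts. The cause was not tested, beyond the change in the cells or genes that each choice makes. The splits by cycle, and leaving out cells with 5 or more UMIs of another lineage, were chosen after seeing the data. Without the latter cells the counts were 384 higher and 446 lower and the interferon median 4.20. The mean over cells of the CPM per cell moved the median of all genes to -0.22. The other 63 values of these results kept their direction where they had one and stayed within 1.5 times the count or within the counting interval or bounds. The difference in cycling cells, whose bounds include 0, still had the other sign in 2 of them (0.4 and 10.6). Of the values of single named genes, 202 moved beyond their interval, 537 did not, and no gene past 2-fold turned its direction. With 68 null-labelled cells, a gene near 50 CPM rests on few UMIs, and no spread between animals could be measured.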

Other observations

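With predicted genes left out, 39 genes lay past 2-fold in opposite directions in pro-B and large pre-B cells and in Ms4a1-positive B cells, with intervals clear of 1 in both classes. Of these, 30 were lower and 9 higher in null-labelled pro-B and large pre-B cells. For comparison, 23.3% of 3416 counted genes were past 2-fold either way in pro-B and large pre-B cells. In Ms4a1-positive B cells it was 24.2% of 3440, and in small pre-B cells 19.6% of 3598. How many genes were counted in both classes is not given here, so the opposite counts carry no share. Against small pre-B cells 4 genes lay in opposite directions in this way, all lower in null-labelled pro-B and large pre-B cells: Gpatch4, Mdn1, Gnl3 and Hspa9. The first 3 take part in building ribosomes or in nucleolar work, and Hspa9 is a mitochondrial chaperone. Gnl3 stood at 40.9 and 223 CPM in pro-B and large pre-B cells and at 125 and 43.9 CPM in small pre-B cells. Mdn1 stood at 9.52 and 61.7 CPM and at 50.5 and 17.5 CPM. These genes were named after their values were seen, and no difference between the classes was tested.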
